A study of Mus musculus with 16 samples.

Results

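The RNA-binding proteins LIN28A and LIN28B, the ubiquitin ligase and RNA-binding protein TRIM71, and the 3 insulin-like growth factor 2 mRNA-binding proteins IGF2BP1, IGF2BP2 and IGF2BP3 were followed in mouse primordial germ cells (PGCs), which give rise to eggs and sperm. The 6 genes Lin28a, Lin28b, Trim71, Igf2bp1, Igf2bp2 and Igf2bp3 were taken by symbol from 2 expression tables of 26219 genes each, and all 6 were found in both. LIN28 proteins bind precursors of the let-7 microRNAs and block their maturation, and let-7 in turn represses Lin28 and Trim71 mRNA through sites in their 3′ untranslated regions (UTRs). IGF2BP proteins bind many mRNAs, including those of Igf2 and Actb, and affect their stability, translation and location. Most of these proteins are known as oncofetal, being abundant in embryos and some tumours and scarce in most adult tissues, whereas IGF2BP2 is also present in many adult tissues. In mouse cultures Lin28 is needed for PGC formation, in part because let-7 represses Prdm1, which encodes a transcriptional repressor that specifies PGCs.

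The study measured 16 libraries of 3′ RNA sequencing, in which reads come from the 3′ ends of mRNAs. The 8 floxed libraries, 4 control and 4 labelled conditional knockout (CKO), came from E11.5 embryos of strain C57BL/6 with the genotype Prdm1(flox/flox); Rosa26(neo-EYFP/+). CKO-labelled embryos also carried Dppa3-MCMP(Tg/0), a tamoxifen-inducible Cre driven from the germ cell gene Dppa3. Per the labels, pregnant females with the floxed allele received 3 mg of 4-hydroxytamoxifen per 25 g of body weight at E10.5, so exposure to the drug was shared by both floxed groups. The 8 wild-type libraries, on an ICR and C57BL/6 background with Dppa3(EGFP/+), held 2 libraries each of E10.5, E11.5, E13.5 male and E13.5 female PGCs. The labels describe sorting by EYFP and by an antibody against SSEA-1 without tying either gate to a floxed group, and nothing in them ties a replicate to its own embryo or litter. The p-values therefore measure the spread between these libraries, which may be technical. As only CKO-labelled embryos carried the Cre, the Prdm1 deletion, the Cre and any difference in sorting cannot be told apart.

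Values are in RPM, read counts that the authors scaled to a common total of gene-assigned reads, with no division by gene length, so levels are compared between groups and not between genes. The steps between values put the depth at 2798000 to 5032000 reads in the floxed and at 1485000 to 4783000 reads in the wild-type libraries. The 9 germ cell markers were detected in every group, with summed levels of 3185.5 to 3990.0 RPM in floxed and 4489.6 to 9460.4 RPM in wild-type libraries. Markers of gonadal somatic and mesenchymal cells summed to 12.4 to 67.4 RPM in control, 9.47 to 226 RPM in CKO-labelled and 4.56 to 60.2 RPM in wild-type libraries; 3 of these 10 markers were at 0 in both E11.5 wild-type libraries. CKO-labelled replicate 4 stood apart with 226 RPM of these markers and 119 RPM of endothelial markers, against 27.3 to 44.1 RPM of endothelial markers in the other floxed libraries. In such bulk samples, fewer cells of a type and less RNA per cell cannot be told apart.

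Prdm1, the gene targeted in the floxed embryos, was at 66.2, 50.7, 63.0 and 73.0 RPM in control and at 79.9, 84.1, 76.6 and 89.4 RPM in CKO-labelled libraries. Its level was thus not lower in any CKO-labelled library than in a control library, and the difference was not called (log2 fold change 0.39 ± 0.12 SE, limma adjusted p = 0.164). The labels do not say which exons the loxP sites flank, and 3′ reads outside a deleted part do not check the deletion, so the label CKO is used as given.

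The let-7 family was set out first, because matches to its seed were searched for in the 6 genes. The 9 mature 5p microRNAs of the mouse let-7 and miR-98 family in RefSeq on GRCm38 share the seed GAGGUAG, bases 2 to 8, in capitals in 3 examples.
let-7a-5p: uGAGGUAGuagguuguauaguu
let-7d-5p: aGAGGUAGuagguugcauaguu
miR-98-5p: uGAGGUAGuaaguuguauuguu
LIN28 is known to bind a GGAG motif in the terminal loop of let-7 precursors, and 9 of the 12 family hairpins in RefSeq hold GGAG 3′ of the 5p arm. The let-7d hairpin (minus strand, chr13:48536012-48536114) is shown with that motif in capitals, because its locus is the only one of the family that passed the filter for testing.
let-7d hairpin: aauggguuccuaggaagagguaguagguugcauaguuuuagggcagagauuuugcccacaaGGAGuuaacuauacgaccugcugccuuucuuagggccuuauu

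The 7-base complement of the seed, CTACCTC, was then searched for on the sense strand of the annotated 3′ UTRs (GENCODE M21, GRCm38). This search was added after the expression values were seen. All 6 genes held at least 1 match, against 7.99% of the 20658 annotated 3′ UTRs, whose median length was 799 bases. Since the 6 UTRs are long, at 1784 to 6337 bases, UTRs of similar length to each are the closer measure. Lin28b, Trim71 and Igf2bp1 held 4 matches each, a number reached by 0.351%, 0.589% and 0.412% of UTRs of similar length. Lin28a held 2 matches, as many as 1.99% of similar UTRs. Igf2bp2 and Igf2bp3 held 1 match each, as 11.9% and 13.2% of similar UTRs did. Each share counts the gene itself and any other of the 6 genes within its range of length. For Lin28b, Trim71 and Igf2bp1 the UTRs of similar length numbered 1138, 679 and 486, so their shares rest on few UTRs. A match describes letters and does not show that let-7 acts there. The 6 matches of the Igf2bp genes, whose levels moved, and the first match of each other gene are shown with the complement of the seed in capitals; all lie on the minus strand of GRCm38.
Igf2bp1 site 1, chr11:95961771-95961800: gctgtgcgaagtaaaCTACCTCaaggtgtg
Igf2bp1 site 2, chr11:95959350-95959379: cagcagtgctattaaCTACCTCagccccag
Igf2bp1 site 3, chr11:95958756-95958785: gtataaatggatgaaCTACCTCagtcctca
Igf2bp1 site 4, chr11:95958133-95958162: acttttggttttaatCTACCTCttagcaaa
Igf2bp2, chr16:22059466-22059495: acacacaaataaaagCTACCTCaggtgttt
Igf2bp3, chr6:49086780-49086809: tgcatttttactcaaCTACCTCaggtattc
Lin28a, chr4:134005182-134005211: gcacagcctgttgaaCTACCTCatttttgc
Lin28b, chr10:45381015-45381044: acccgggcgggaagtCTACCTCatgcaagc
Trim71, chr9:114512465-114512494: aacattgcctaagtcCTACCTCagcttaaa

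**Figure D1:**
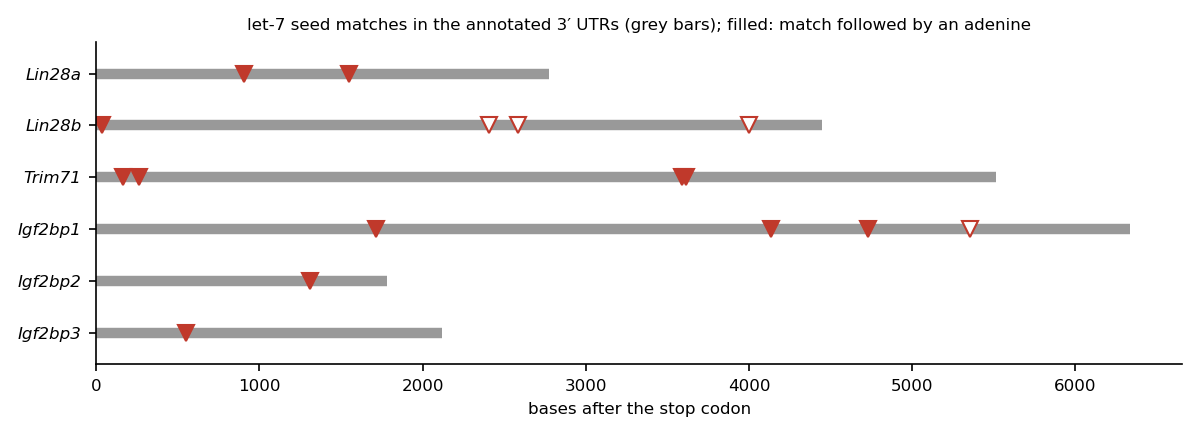
Positions of let-7 seed matches (triangles) along the annotated 3′ UTR of each gene (grey bars), in bases after the stop codon; filled triangles mark matches followed by an adenine. Trim71 has all 4 matches followed by an adenine and Lin28b has 1 of 4.

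Across the groups, limma called Lin28b and Trim71 in none of the 4 comparisons and Lin28a in 1, and each Igf2bp gene had its own course. The plot of levels by library shows all 96 values.

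**Figure D2:**
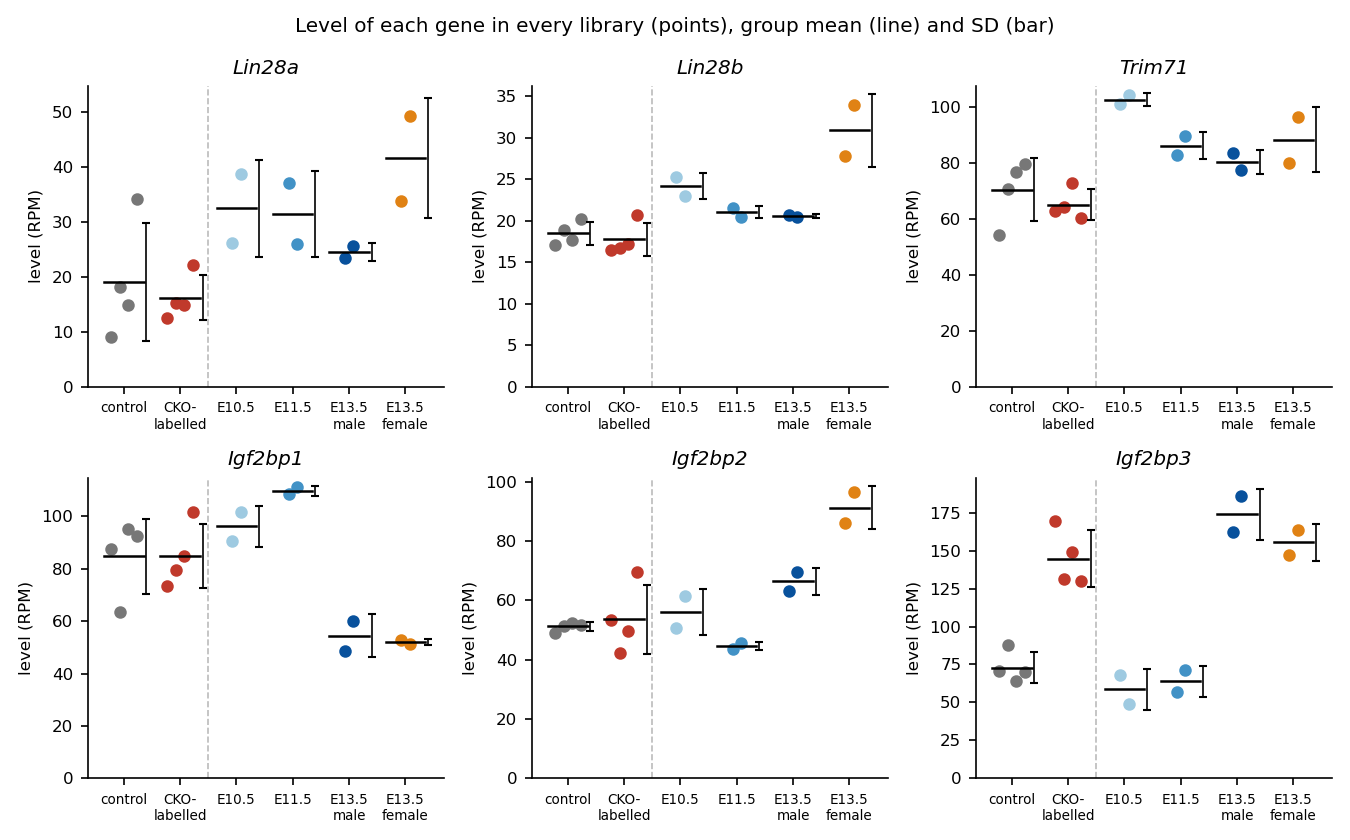
RPM of each gene in every library (points), with the group mean (line) and SD (bar; n = 4 for control and CKO-labelled, n = 2 for the other groups); the dashed line separates the tables, which were normalised apart. Igf2bp3 lies at 49.0 to 87.5 RPM in the control, E10.5 and E11.5 libraries and at 130 to 186 RPM in the CKO-labelled and E13.5 libraries.

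Lin28a, on chromosome 4, was at 9.12, 18.1, 14.9 and 34.2 RPM in control and at 12.5, 15.3, 14.9 and 22.2 RPM in CKO-labelled libraries. The control libraries spanned the whole range of the CKO-labelled ones. In wild-type PGCs it was at 26.2 and 38.7 RPM for E10.5, 37.0 and 25.9 RPM for E11.5, 23.4 and 25.7 RPM in E13.5 males, and 33.9 and 49.3 RPM in E13.5 females. In the order of the wild-type means, E13.5 male (24.5 RPM) was lowest, followed by E11.5 (31.5 RPM). The highest E13.5 male library lay only just below the lowest E11.5 library, at 25.7 against 25.9 RPM. E11.5 and E10.5 (32.5 RPM), and E10.5 and E13.5 female (41.6 RPM), overlapped.

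Lin28b, the paralogue on chromosome 10, was followed next. It was at 17.1, 18.9, 17.7 and 20.3 RPM in control and at 16.5, 16.7, 17.2 and 20.7 RPM in CKO-labelled libraries, groups that overlapped. The wild-type values were 25.3 and 23.0 RPM for E10.5, 21.6 and 20.5 RPM for E11.5, 20.7 and 20.4 RPM in E13.5 males, and 27.8 and 34.0 RPM in E13.5 females. The E13.5 female libraries were the highest of the 8, and E13.5 male overlapped E11.5.

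Trim71, on chromosome 9, was at 54.4, 70.8, 76.8 and 79.8 RPM in control and at 62.9, 64.4, 72.9 and 60.4 RPM in CKO-labelled libraries. Across wild-type stages it was at 101 and 104 RPM for E10.5, 82.8 and 89.7 RPM for E11.5, 83.5 and 77.5 RPM in E13.5 males, and 80.1 and 96.5 RPM in E13.5 females. Both E10.5 libraries lay above the other 6, and E11.5 and both E13.5 groups overlapped.

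Igf2bp1, on chromosome 11, encodes the protein first known for binding the zipcode of Actb mRNA. It was at 87.6, 63.6, 95.04 and 92.5 RPM in control and at 73.4, 79.6, 85.0 and 102 RPM in CKO-labelled libraries. In wild-type libraries it was at 90.7 and 102 RPM for E10.5, 108 and 111 RPM for E11.5, 48.8 and 60.2 RPM in E13.5 males, and 52.9 and 51.3 RPM in E13.5 females. All 4 E13.5 libraries lay below the earlier ones, with the sexes overlapping. The microRNA gene Mir3063 lies inside Igf2bp1 on the same strand, and Igf2bp1 values were not whole multiples of 1 read in any floxed library; Mir3063 was listed at no more than 1.44 RPM.

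Igf2bp2, on chromosome 16, was at 49.1, 51.3, 52.5 and 51.8 RPM in control and at 53.4, 42.1, 49.7 and 69.7 RPM in CKO-labelled libraries, of which replicate 4 was the highest. Among wild-type PGCs it was at 50.6 and 61.5 RPM for E10.5, 43.8 and 45.6 RPM for E11.5, 63.1 and 69.7 RPM in E13.5 males, and 86.1 and 96.5 RPM in E13.5 females. Its 4 wild-type groups did not overlap, rising from E11.5 through E10.5 and E13.5 male to E13.5 female. The gap from E10.5 to E13.5 male was narrow, at 61.5 against 63.1 RPM, or 192 against 189 reads. Libraries also did not overlap in 46.2% of all genes between E10.5 and E11.5 and in 71.1% between the sexes.

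Igf2bp3, on chromosome 6, was at 70.6, 87.5, 63.9 and 69.7 RPM in control and at 169, 131, 149 and 130 RPM in CKO-labelled libraries. Every CKO-labelled library lay above every control library, and these groups did not overlap in 8.19% of the 9384 genes tested. The wild-type libraries had 68.2 and 49.0 RPM for E10.5, 56.6 and 71.2 RPM for E11.5, 162 and 186 RPM in E13.5 males, and 147 and 164 RPM in E13.5 females. The earlier groups overlapped each other, the E13.5 sexes overlapped each other, and the E13.5 libraries lay above all earlier ones.

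Igf2bp3 was the only 1 of the 6 genes called between CKO-labelled and control PGCs, a comparison in which 2.43% of the 9384 genes tested were called, 1.93% higher and 0.501% lower. Its mean was 145 ± 18.5 RPM (SD, n = 4) in CKO-labelled against 72.9 ± 10.2 RPM (SD, n = 4) in control libraries, 1.98 times as high. On the scale of log2(RPM + 1), used for every fold change here, this was a difference of 0.98 ± 0.12 (SE), with a limma adjusted p of 0.000529 over all genes tested. The call held under all 24 alternative settings run, at 0.90 to 1.07. Somatic and mesenchymal markers were at 91.0, 16.3, 9.47 and 226 RPM in CKO-labelled replicates 1 to 4, against 12.4 to 67.4 RPM in control. Igf2bp3 was at 169, 131, 149 and 130 RPM in the same 4 replicates. Pre-granulosa markers were at 5.37 to 34.0 RPM in CKO-labelled and 0.294 to 6.76 RPM in control libraries. Erythroid markers were at 1.79 to 77.2 RPM in CKO-labelled and 1.18 to 62.4 RPM in control libraries. The part of other cells in the difference was not tested.

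The other 5 genes were not called there, and their 95% confidence intervals bound the difference. The interval was -0.77 to 0.57 for Lin28a, -0.39 to 0.28 for Lin28b and -0.39 to 0.19 for Trim71. It was -0.30 to 0.32 for Igf2bp1 and -0.27 to 0.36 for Igf2bp2. The value for Lin28a depended on single libraries: it was -0.10 with all 8, 0.22 without control replicate 4 and -0.53 without control replicate 1 and CKO-labelled replicate 4.

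**Figure D3:**
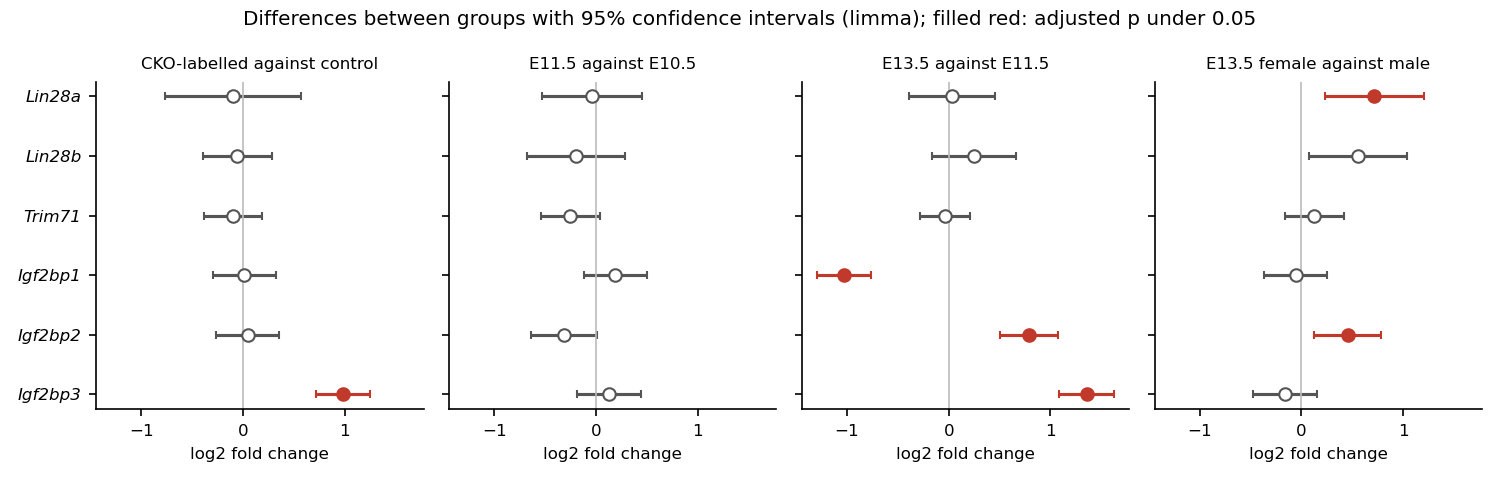
Log2 fold change of each gene (points) with its 95% confidence interval (bars) in 4 comparisons; filled red points have a limma adjusted p under 0.05. Igf2bp3 is called at 0.98 in CKO-labelled and at 1.36 in E13.5 PGCs, and Igf2bp1 at -1.03 in E13.5 PGCs.

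From E10.5 to E11.5 limma called 0 of the 6 genes, and 0 of them had an unadjusted p under 0.05; 4.28% of the 10749 genes tested were called, 2.31% higher and 1.97% lower. The largest difference was -0.31 ± 0.16 (SE) for Igf2bp2. Of Lin28b, Trim71, Igf2bp1 and Igf2bp2, the libraries of both stages did not overlap, which also held for 46.2% of all genes.

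Between E11.5 and E13.5 the 3 Igf2bp genes parted. Igf2bp3 and Igf2bp2 rose and Igf2bp1 fell, while Lin28a, Lin28b and Trim71 were not called; 47.9% of all genes tested were called, 29.0% higher and 18.8% lower, so a call of 3 in 6 is near the background. The E11.5 and E13.5 libraries did not overlap in these 3 genes, nor in 44.3% of all genes. Igf2bp3 rose from 63.9 ± 10.3 RPM (SD, n = 2) to a mean of 165 RPM over the 4 E13.5 libraries, a log2 fold change of 1.36 ± 0.13 (SE), with a limma adjusted p of 3.264e-09. Igf2bp2 rose from 44.7 ± 1.26 RPM (SD, n = 2) to 78.9 RPM, by 0.79 ± 0.14 on the log2 scale, with a limma adjusted p of 3.52e-05. Igf2bp1 fell from 110 ± 1.84 RPM (SD, n = 2) to 53.3 RPM, a log2 fold change of -1.03 ± 0.13, with a limma adjusted p of 2.49e-07. The median of all genes was 0.11, and the 3 calls held under all 23 alternatives, median-ratio scaling included. The intervals were -0.39 to 0.45 for Lin28a, -0.17 to 0.67 for Lin28b and -0.28 to 0.21 for Trim71.

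An adjacent gene bears on the reading of Igf2bp3. Malsu1, listed under its older symbol 2410003K15Rik, lies on the opposite strand and shares 1529 bases with the 3′ end of Igf2bp3 (GENCODE M21), and the strand setting of the counting is not given in the sources used here, so reads of the 2 genes may not be separable there. Malsu1 was at 60.9, 56.9, 48.2 and 61.0 RPM in control and at 65.3, 46.5, 53.7 and 54.7 RPM in CKO-labelled libraries, which overlapped (log2 fold change -0.05 ± 0.13 SE, limma adjusted p = 0.948). In wild-type PGCs it was at 85.5 and 82.8 RPM at E11.5, 123 and 113 RPM in E13.5 males, and 141 and 134 RPM in E13.5 females. Malsu1 thus rose with Igf2bp3 between E11.5 and E13.5 (0.59 ± 0.11 SE, limma adjusted p = 0.00011) but was not called between CKO-labelled and control; the part of shared reads in either result was not tested.

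**Figure D4:**
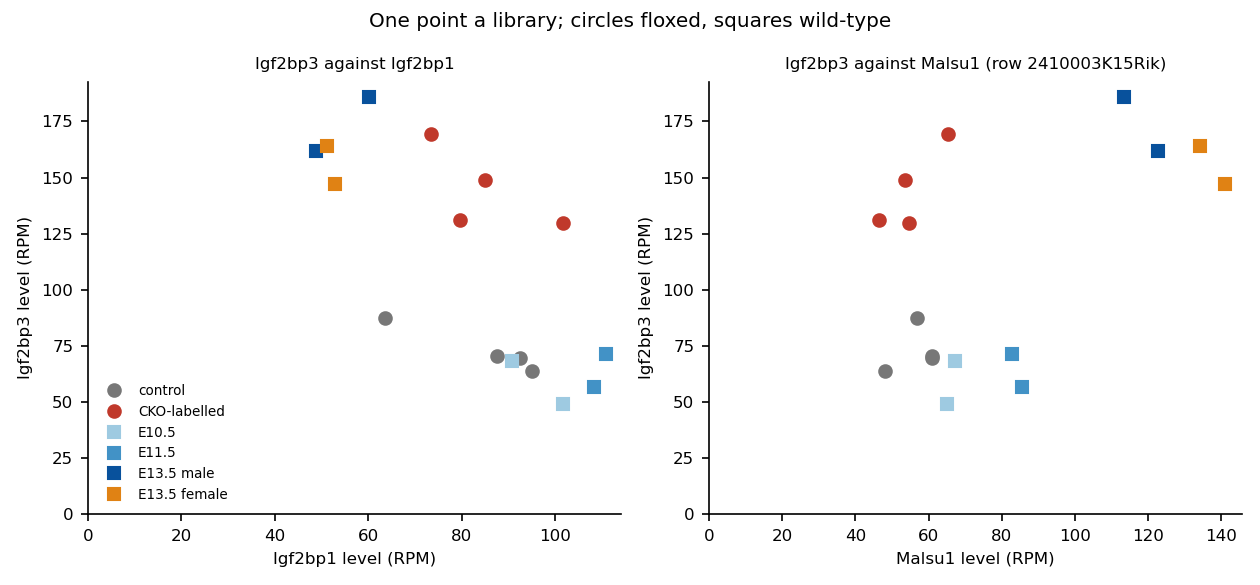
Igf2bp3 level against Igf2bp1 level (left) and against Malsu1 level (right), both in RPM, with 1 point per library; circles are floxed and squares wild-type libraries, whose tables were normalised apart. CKO-labelled libraries have Igf2bp3 at 130 to 169 RPM with Malsu1 at 46.5 to 65.3 RPM, and E13.5 libraries have Igf2bp3 at 147 to 186 RPM with Malsu1 at 113 to 141 RPM.

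Ratios within a library do not depend on its total, and 3 pairs were examined in 2 comparisons, a choice made after the levels were seen. The log2 ratio of Igf2bp3 to Igf2bp1 was 0.77 ± 0.35 (SD, n = 4) in CKO-labelled and -0.21 ± 0.46 (SD, n = 4) in control libraries. The groups overlapped, since control replicate 2 had a ratio of 1.38 and CKO-labelled replicate 4 one of 1.28. The exact two-sided permutation test gave p = 0.0571 (0.267 adjusted over 6 tests), where 0.0286 is the smallest p it can give. Between E11.5 and E13.5 the same log2 ratio went from -0.79 ± 0.21 (SD, n = 2) to 1.63 ± 0.11 (SD, n = 4), and that of Igf2bp2 to Igf2bp1 from -1.30 ± 0.02 to 0.55 ± 0.32. Both had the smallest p that the exact permutation test can give with 2 against 4 libraries, 0.133. The log2 ratio of Lin28a to Lin28b differed by -0.04 between CKO-labelled and control (exact permutation p = 0.886) and by -0.23 between E13.5 and E11.5 (exact permutation p = 0.267).

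Between the sexes at E13.5, Lin28a and Igf2bp2 were higher in females, in a comparison in which 37.6% of all genes tested were called, 21.2% higher and 16.4% lower, so 2 of 6 is near the background. The sexes did not overlap in 3 of the 6 genes, Lin28a, Lin28b and Igf2bp2, and in 71.1% of all genes. Lin28a was at 41.6 ± 10.9 RPM (SD, n = 2) in females and 24.5 ± 1.65 RPM (SD, n = 2) in males, a log2 fold change of 0.72 ± 0.24 (SE), with a limma adjusted p of 0.0186. Igf2bp2 was at 91.3 ± 7.32 RPM (SD, n = 2) in females and 66.4 ± 4.67 RPM (SD, n = 2) in males, a difference of 0.45 ± 0.16 (SE), with a limma adjusted p of 0.0261. Lin28b had a similar difference that was not called (0.56 ± 0.24 SE, limma adjusted p = 0.0626). Neither call was stable: Lin28a had an adjusted p of 0.129 without male replicate 1, 0.0728 without male replicate 2 and 0.294 without female replicate 2, and Igf2bp2 had 0.0546 to 0.21 when any E13.5 library was left out. Trim71, Igf2bp1 and Igf2bp3 were not called, with intervals of -0.16 to 0.41, -0.36 to 0.25 and -0.47 to 0.15.

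The other genes of the pathway were read from 4 lists of 55 genes in all. They are described by counts, beside the shares of all genes called that are given above. Over all genes, 1125 of 9384 had an unadjusted p under 0.05 between CKO-labelled and control, and 2057 of 10749 between E10.5 and E11.5.

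**Figure D5:**
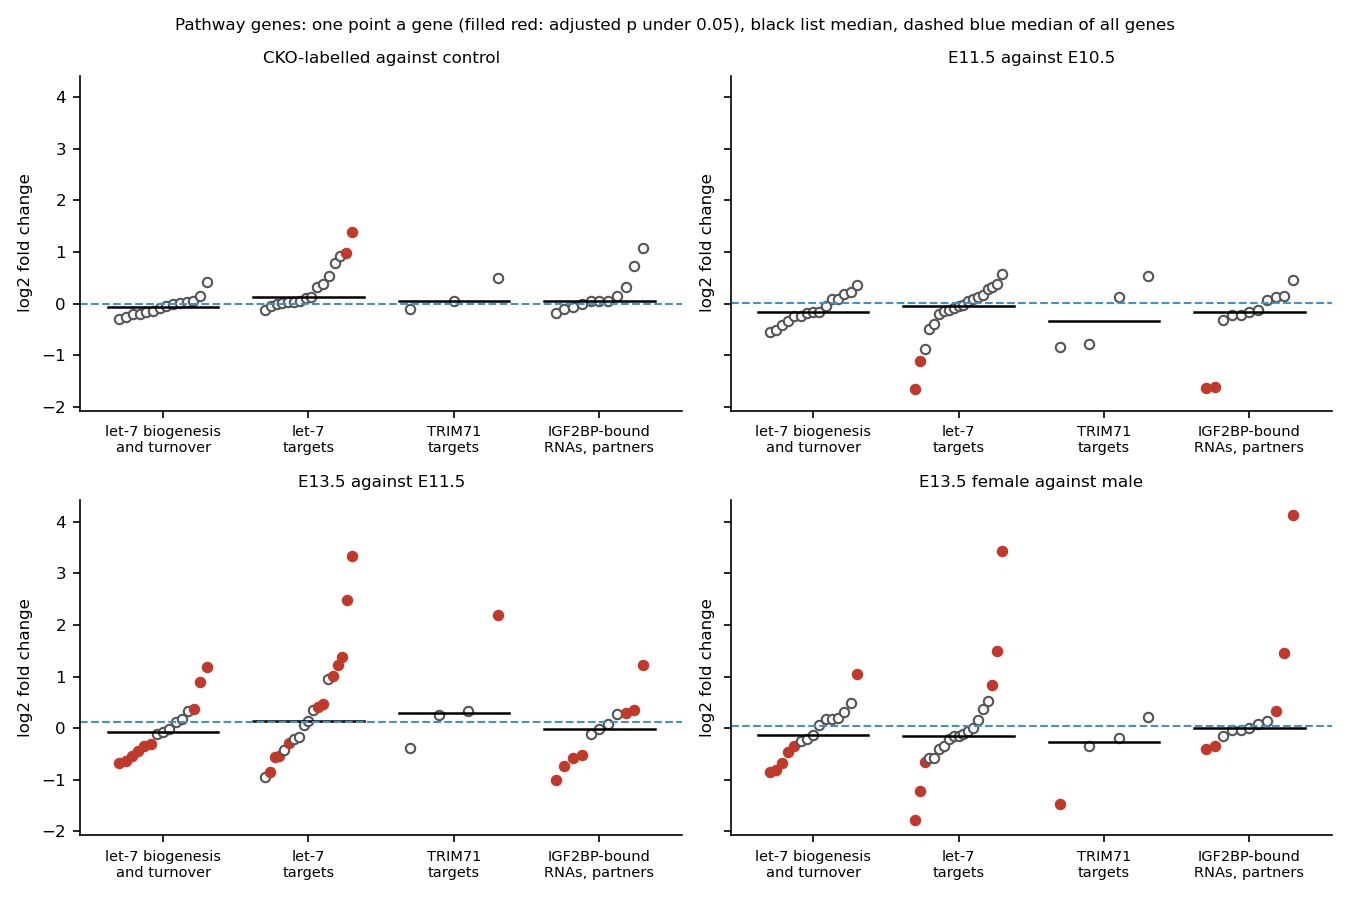
Log2 fold change of every tested gene of 4 lists (points; filled red for a limma adjusted p under 0.05) in 4 comparisons, with the list median (black) and the median of all genes tested (dashed blue). Igf2 at 4.13 and Ccnd1 at 3.44 lie highest between females and males.

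Of the 14 factors of let-7 biogenesis and turnover tested in the floxed embryos, limma called 0 between CKO-labelled and control, with 1 at an unadjusted p under 0.05, and the list's median was -0.07 against -0.01 over all genes. Between E10.5 and E11.5 limma called 0 of 15, and 4 had an unadjusted p under 0.05. Between E11.5 and E13.5, 3 of 15 rose and 6 fell. Zcchc11, encoding the uridylyltransferase TUT4 that LIN28A recruits to let-7 precursors, was at 43.8 and 31.3 RPM at E11.5 and at 57.1, 68.7, 82.8 and 73.7 RPM at E13.5 (0.90 ± 0.15 SE, limma adjusted p = 2.12e-05). Tnrc6a, encoding a GW182 protein of the silencing complex, rose by 1.19 ± 0.15, and Drosha, encoding the nuclear RNase of microRNA processing, by 0.36 ± 0.12. Trim25, a cofactor of TUT4, fell, with a log2 fold change of -0.68 ± 0.17, as did Hnrnpa1, whose protein binds let-7a precursors, with -0.34 ± 0.07, a call lost without the trend (adjusted p = 0.0503). The stages overlapped for Drosha, whose call was lost without E11.5 replicate 1 (adjusted p = 0.172), with median-ratio scaling (0.0613) and without the trend (0.0658).

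The 2 subunits of the Microprocessor differed between the sexes in opposite directions. Dgcr8, its RNA-binding subunit, was at 162 and 152 RPM in females and at 83.2 and 67.6 RPM in males (1.06 ± 0.13 SE, limma adjusted p = 3.34e-07). Drosha, its nuclease, was at 89.9 and 94.8 RPM in females and at 156 and 170 RPM in males (-0.81 ± 0.13 SE, limma adjusted p = 2.3e-05). In all, 1 of 15 was higher and 5 were lower in females, where 21.2% of all genes tested were called higher and 16.4% lower.

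Of the 12 let-7 and miR-98 loci, which were added after the tables were seen, 11 did not pass the wild-type filter, and 3′ sequencing of polyadenylated RNA does not measure mature microRNAs. Mirlet7d was at 2.26 and 1.6 RPM for E10.5, 2.02 and 2.85 RPM for E11.5, 7.01 and 9.51 RPM in E13.5 males, and 4.6 and 6.58 RPM in E13.5 females, from 3 to 27 reads. It rose between E11.5 and E13.5 (1.18 ± 0.38 SE, limma adjusted p = 0.0121). In floxed libraries Mirlet7d did not pass the filter, and it was at 2.39 to 8.95 RPM in control and 1.72 to 12.5 RPM in CKO-labelled libraries.

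Among known let-7 targets, 2 of 16 were higher in CKO-labelled PGCs and 0 lower. Among these was Cdk6, a kinase of the G1 phase. It was at 5.89, 12.7, 5.47 and 4.48 RPM in control and at 22.1, 18.1, 21.8 and 14.3 RPM in CKO-labelled libraries (1.38 ± 0.27 SE, limma adjusted p = 0.0149). The groups did not overlap for Cdk6, nor for 8.19% of all genes. The call of Cdk6 was lost without control replicate 3 or without CKO-labelled replicate 1, 2 or 3, at adjusted p of 0.0502 to 0.0664.

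In wild-type PGCs, 2 of 19 let-7 targets fell between E10.5 and E11.5. Hmga2, a chromatin protein, was at 33.4 and 27.5 RPM and then 16.8 and 10.8 RPM (-1.11 ± 0.32 SE, limma adjusted p = 0.0419), and Ccnd1, cyclin D1, was at 5.42 and 5.76 RPM and then 0 and 3.42 RPM. Both calls were unstable. Hmga2 had limma adjusted p of 0.0701 with a pseudocount of 0.1, 0.175 with no filter and 0.158 without the trend. Ccnd1 had 0.0675, 0.256 and 0.254 under the same settings, and 0.170 with a pseudocount of 10. Hmga2 was lost without either E10.5 library (adjusted p 0.289 and 0.132), without E11.5 replicate 2 (0.208), and without E13.5 male replicate 1 or either E13.5 female library (0.0558 to 0.0605). Ccnd1 was lost without any library but E11.5 replicate 2 (adjusted p 0.0692 to 0.403), and its difference was -0.58 without E11.5 replicate 1, the library listed at 0. Somatic markers moved beside them, at 52.8 and 60.2 RPM in the E10.5 and 5.39 and 4.56 RPM in the E11.5 libraries, as did erythroid markers, at 247 and 227 RPM and then 16.8 and 6.26 RPM. The part of these cells in the falls was not tested.

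Between E11.5 and E13.5, 7 of the 19 targets rose and 4 fell. Igf1r, the receptor of insulin-like growth factors, was at 3.37 and 4.27 RPM at E11.5 and at 28.4, 31.3, 25.9 and 19.2 RPM at E13.5 (2.48 ± 0.29 SE, limma adjusted p = 8.1e-08). Hmga1 and Cdc34 fell, with log2 fold changes of -0.55 ± 0.09 and -0.55 ± 0.10. Ccnd1 rose by 3.34 ± 0.39 from 0 and 3.42 RPM at E11.5, a mean over sexes that lay far apart. Cdk6 rose by 1.37 ± 0.29. Between the sexes 3 of 19 were higher and 3 lower in females. Ccnd1 was at 64.0 and 74.8 RPM in females and at 5.68 and 5.28 RPM in males (3.44 ± 0.46 SE, limma adjusted p = 8.5e-07), and Tgfbr1 was higher by 1.49 ± 0.24. Cdk6 was lower in females (-1.21 ± 0.33), a call lost without male replicate 2 (adjusted p = 0.0555) or female replicate 1 (0.0683).

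Of the 8 known TRIM71 targets, 3 passed the filter in floxed and 4 in wild-type libraries. Limma called 0 of 3 between CKO-labelled and control, with 0 at an unadjusted p under 0.05, and 0 of 4 between E10.5 and E11.5, with 2 at an unadjusted p under 0.05. Plekho1 rose between E11.5 and E13.5 (2.19 ± 0.39 SE, limma adjusted p = 4.03e-05). Egr1 was lower in females than males (-1.47 ± 0.37 SE, limma adjusted p = 0.00232), a call lost without male replicate 1 (adjusted p = 0.0506). Cdkn1a, encoding the cell-cycle inhibitor p21 and the best-known TRIM71 target, was at 26.9 and 45.6 RPM at E11.5 and at 43.4, 35.2, 47.2 and 44.1 RPM at E13.5, which overlapped.

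Among the RNAs bound by IGF2BP proteins and their partners, limma called 0 of 11 between CKO-labelled and control, with 0 at an unadjusted p under 0.05. Igf2, the growth factor that gave the family its name, was at 1.47, 30.0, 16.4 and 13.9 RPM in control and at 41.1, 8.35, 10.0 and 88.3 RPM in CKO-labelled libraries. The spread of Igf2 followed single libraries, and CKO-labelled replicates 1 and 4, the highest in Igf2, were also the highest in somatic markers at 91.0 and 226 RPM; the part of those cells was not tested.

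In wild-type PGCs, Igf2 was at 83.5 and 85.8 RPM for E10.5, 28.3 and 25.9 RPM for E11.5, 4.34 and 2.82 RPM in E13.5 males, and 80.9 and 75.1 RPM in E13.5 females. It fell from E10.5 to E11.5 (-1.61 ± 0.22 SE, limma adjusted p = 2.73e-05) and was higher in females than in males (4.13 ± 0.22 SE, limma adjusted p = 1.17e-14). H19, the noncoding RNA of the same imprinted locus, was at 95.7 and 77.2 RPM for E10.5, 22.9 and 32.2 RPM for E11.5, 10.4 and 11.3 RPM in E13.5 males, and 37.6 and 26.0 RPM in E13.5 females. H19 thus had the same directions as Igf2. Its differences were -1.63 ± 0.23 from E10.5 to E11.5, a call lost without the trend (limma adjusted p = 0.0628), and 1.45 ± 0.23 in females against males. Other cell markers moved beside both differences. From E10.5 to E11.5 erythroid markers went from 227 to 247 RPM to 6.26 to 16.8 RPM, and somatic and mesenchymal markers from 52.8 to 60.2 RPM to 4.56 to 5.39 RPM. In E13.5 females, erythroid markers were at 31.2 to 37.6 RPM against 5.01 to 7.04 RPM in males, pre-granulosa markers at 4.18 to 4.93 against 1.34 to 2.47 RPM, and somatic and mesenchymal markers at 5.76 to 6.27 against 15.8 to 16.0 RPM. Their part in the values of Igf2 and H19 was not tested.

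Between E11.5 and E13.5, 3 of 11 IGF2BP-bound RNAs and partners were called higher and 4 lower. Igf2 and H19 are among the 4 by a mean over sexes that lay apart. For Igf2 the difference of log2 values was -0.57, while its mean level went from 27.1 to 40.8 RPM. The call of Igf2 was lost with a pseudocount of 10 (-0.10, adjusted p = 0.565), without E11.5 replicate 1 (0.0846) and without E13.5 female replicate 2 (0.0605). For H19 the difference was -0.53, and its mean level went from 27.5 to 21.3 RPM. The call of H19 was lost in 11 of 23 alternatives. Actb, the zipcode RNA of IGF2BP1, was at 896 and 794 RPM at E11.5 and at 499, 453, 380 and 363 RPM at E13.5 (-1.004 ± 0.08 SE, limma adjusted p = 6.05e-11). Ybx1, encoding an RNA-binding partner of IGF2BP1, also fell, with -0.73 ± 0.08, and Btrc, an IGF2BP1-bound mRNA, and Matr3 rose by 1.22 ± 0.20 and 0.35 ± 0.09. The call of Matr3 was lost without E11.5 replicate 2 (adjusted p = 0.0804) and without the trend (0.0838). Between the sexes 3 of 11 were higher and 2 lower in females.

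The genes with the most similar course over the 8 wild-type libraries were taken from 7526 genes averaging 10 RPM or more there, by Pearson's r of log2(RPM + 1), as a description with no test. For Igf2bp3 they were Ccdc136, Eps15 and Commd3 (r = 0.99 each), of which Eps15 had r = 0.86 with it over the 8 floxed libraries, Ccdc136 0.23 and Commd3 0.00. For Igf2bp1 they were Idh3b, Capg and Eif4e2 (r = 0.98 to 0.99), and for Igf2bp2 Cbll1, Cog6 and Aplf (r = 0.99 each). For Lin28a they were Usp45, Vrk2 and Csda (r = 0.92 to 0.97), for Lin28b Dis3l, Clip1 and Pola1 (r = 0.96 to 0.97), and for Trim71 Nek2, Eif2s2 and Rab3gap1 (r = 0.92 to 0.95). With 4 groups of 2 libraries, such values rest on few independent points.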

How the data were processed

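The 16 libraries of mouse PGCs were made for 3′ RNA sequencing with 11 PCR cycles. The tools cutadapt 1.3, TopHat 1.4.1 and Cufflinks 2.2.0 and the build mm10 are named in the submitters' processing notes, without their roles. The deposited values are RPM, relative to reads assigned to genes by the authors, in 2 tables of 26219 genes that were normalised apart. Within a library 99.61% to 99.79% of positive values were whole multiples of 1 step within 0.05 reads, which gives the depth; 3 reads, a floor that covers counting error only, correspond to 0.596 to 2.02 RPM. Values were tested as RPM and not as counts.

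Tested genes reached 5 RPM in 4 or more floxed, or in 2 or more wild-type, libraries. They were tested on log2(RPM + 1), with a pseudocount of 1, by limma 3.58.1 in R 4.3.3 (lmFit, eBayes with a mean-variance trend, two-sided), and a call needs a p under 0.05 after Benjamini-Hochberg adjustment over all genes tested. The 8 wild-type libraries were fitted together, and their comparisons share libraries. The procedure was also run on simulated counts, with the same added spread set for every gene. Its outcome is not reported here and is not used as a check of the calls. Ratios were tested by exact permutation with scipy 1.17.1. Sequences are from RefSeq and GENCODE M21, both on GRCm38.

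Named genes are the 6 genes, up to 4 called genes with the smallest p per list and comparison, and the 3 genes most like each of the 6; some results are not reported here. Members and lists were chosen with earlier results of these data known. Prdm1 and Cdkn1a, which are on the lists, are named outside this rule after their values were seen. The let-7 loci, the 3′ UTR search, Malsu1 and Mir3063, and the ratios were added after values were seen. So was a search of the 250 bases before the start of 5 of the 6 genes on both strands: the motif GAAAG was in 4 of 5, against 51.5% of all 32851 windows, and its longer form GTGAAAG in 0 of 5, against 3.57%. Alternatives were other pseudocounts, filters, scaling, no trend, a replicate block and libraries left out.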

Additional observations from a re-analysis of the deposited data

Results flagged for a closer look

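The 14 sets of 4 floxed libraries of the 6 genes and of Cdk6 were screened for a library far from the other 3. Cdk6 in control had 1 such library, replicate 2 at 12.7 RPM against 4.48 to 5.89 RPM in the other 3, with a gap of 0.829 of the range, which only just reaches the limit; chance flags about 1 set in 20.

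At E13.5, where the change since E11.5 was set beside that of the other sex, 16 genes differed between females and males. This difference is the limma comparison of females with males, and the 16 are the named genes called in it, when 37.6% of all genes were. Of the 6 genes, Lin28a was higher in females by 0.72 and Igf2bp2 by 0.45 on the log2 scale. Of IGF2BP-bound RNAs and partners, Igf2 differed by 4.13, H19 by 1.45, Matr3 by 0.33, Ybx1 by -0.41 and Actb by -0.36. Of let-7 targets, Ccnd1 differed by 3.44, Tgfbr1 by 1.49 and Cdk6 by -1.21. Of TRIM71 targets, Egr1 differed by -1.47. Of let-7 biogenesis factors, Dgcr8 differed by 1.06, Drosha by -0.81, Eif2c1, an Argonaute gene, by -0.86, Trim25 by -0.68 and Hnrnpa1 by -0.34. Several of these calls were lost under alternatives. Matr3 was lost with no filter (adjusted p = 0.0683), without the trend (0.159), and without male replicate 1 (0.0919), male replicate 2 (0.0500) or female replicate 2 (0.183). Actb was lost without the trend (adjusted p = 0.113) and without male replicate 1 (0.0633), and Ybx1 and Hnrnpa1 without the trend (0.0545 and 0.0943). Trim25 was lost without male replicate 2 (adjusted p = 0.0563) or female replicate 1 (0.0594), and Eif2c1 without female replicate 1 (0.0926).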

How the results depend on the processing

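The calls of Igf2bp3 between CKO-labelled and control, and of Igf2bp1, Igf2bp2 and Igf2bp3 between E11.5 and E13.5, held under all 24 and 23 alternatives. When libraries were left out in turn, genes were first filtered again on those remaining; the filter was later held to that of all libraries, a choice made after both sets of counts were seen, and both are given. For pathway genes only the comparisons in which they were called were followed. Between CKO-labelled and control, 228 genes were called in all, 139 at a filter of 20 RPM, and 137 to 204 with single libraries left out (101 to 203 refiltered), or 211 without control replicate 1 and CKO-labelled replicate 4 together. Of the libraries left out singly, the count moved by over 1.5 times without CKO-labelled replicate 2 (137), or, refiltered, without any CKO-labelled replicate (101 to 139). The 2 pathway genes there became 1 with no filter or a filter of 20 RPM and 1 to 3 with libraries left out. Between E10.5 and E11.5, 460 genes became 80 with no filter, 27 without the trend and 105 to 486 (100 to 487 refiltered) with libraries left out, with 105 and 167 without E10.5 replicates 1 and 2. The 4 pathway genes there became 2 with a pseudocount of 0.1 or no filter, 1 without the trend and 2 to 7 with libraries left out. Without the trend, pathway genes went from 28 to 18 between E11.5 and E13.5 and from 18 to 11 between the sexes. Between the sexes all genes called went from 4038 to between 2708 and 4433 (2552 to 4429 refiltered), and of the 6 genes 2 were called, 1 with no filter (Igf2bp2), 1 without the trend (Lin28b, with Lin28a and Igf2bp2 both lost) and 0 to 3 with libraries left out. Signs turned only for differences not called. With libraries left out, CKO-labelled against control ranged from -0.53 to 0.22 for Lin28a, -0.12 to 0.077 for Igf2bp1 and -0.11 to 0.15 for Igf2bp2. E11.5 against E10.5 ranged from -0.31 to 0.24 for Lin28a and -0.10 to 0.37 for Igf2bp3. E13.5 against E11.5 ranged from -0.22 to 0.28 for Lin28a, which was -0.066 with median-ratio scaling, and -0.10 to 0.031 for Trim71. Females against males ranged from -0.0064 to 0.26 for Trim71 and -0.21 to 0.093 for Igf2bp1. The cause of these shifts was not tested. Deviations of same-numbered floxed libraries correlated at 0.241, 0.0198, 0.252 and 0.182 for replicates 1 to 4. All but replicate 2 exceeded 0.1, and whether the replicate numbers mark a shared origin was not tested. In 12 wild-type pairs such deviations correlated at -0.0305 to 0.0331, where 2 libraries a group give both replicate numbers the same value. With the replicate block 314, 559, 5167 and 4099 genes were called in the 4 comparisons, and no call of the 6 genes changed.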
